A study of Mus musculus with 12 samples.

Results

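The genes described here are 9 genes of germ cells and meiosis: Sycp1, Sycp3, Stra8, Dazl, Ddx4, Mael, Dnd1, Nanos3 and Prdm1. They were taken by name, as all probe sets of the array whose single annotated gene symbol is one of the 9. This found 9 probe sets of 8 genes among 45101 probe sets and 18193 named genes. Dazl had 2 probe sets and the other genes 1 each. Nanos3 had no named probe set and was not analysed here.

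RNA came from TBV2 mouse embryonic stem (ES) cells, a wild-type line of the 129/SvP strain, so the cells studied were not germ cells. All cultures grew at low density on gelatin, free of feeder cells, for 5 days. Their medium held leukemia inhibitory factor (LIF), which maintains ES cells, and lacked non-essential amino acids. Control cultures had no further addition, and the other cultures received 500 µM L-proline. The control and the proline group have 2 biological replicates apiece, each with 3 arrays. The labels do not explain the letters that tell these 3 arrays apart, and they were taken as repeats of 1 replicate. All replicates come from 1 cell line and nothing in the labels says how they were kept apart. The p-values therefore measure the spread between these samples alone. The cultures were measured in bulk, so that fewer cells with a transcript and less transcript per cell cannot be told apart.

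Germ cells arise from the post-implantation epiblast, where Prdm1 (Blimp1) represses the somatic program and Nanos3 and Dnd1, both RNA-binding proteins, keep primordial germ cells alive. Dazl, Ddx4 (Vasa) and Mael then act on RNA in germ cells, the latter pair in the nuage where piRNAs are made against transposons. Stra8, induced by retinoic acid, commits cells to meiosis, and Sycp1 and Sycp3 build the synaptonemal complex that holds paired chromosomes together. In somatic cells many such genes are kept silent by DNA methylation of CpG-rich promoters and by a Polycomb complex that holds E2F6, MGA and MAX. Mouse ES cells are known to transcribe a number of them without being germ cells.

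The promoters of the 3 genes whose proline arrays lay entirely to one side of the control arrays are printed first, with that of Ddx4, whose groups overlapped. Each is the 250 bases before the RefSeq start of the gene, 5′ to 3′ on the strand of the gene, build GRCm38.p6. Capitals mark matches, on either strand, to the E-box CACGTG (bound by MGA and MAX among others), the E2F6 core TCCCGC and the nuclear receptor hexamer AGGTCA. None of the marked matches overlaps another.
Sycp3, chr10:88459337-88459586, + strand: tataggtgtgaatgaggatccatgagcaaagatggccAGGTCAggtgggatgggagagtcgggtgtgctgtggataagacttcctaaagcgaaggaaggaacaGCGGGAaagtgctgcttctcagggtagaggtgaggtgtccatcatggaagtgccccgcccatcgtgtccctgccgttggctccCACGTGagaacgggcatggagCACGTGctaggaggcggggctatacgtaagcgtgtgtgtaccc
Ddx4, chr13:112652311-112652560, - strand: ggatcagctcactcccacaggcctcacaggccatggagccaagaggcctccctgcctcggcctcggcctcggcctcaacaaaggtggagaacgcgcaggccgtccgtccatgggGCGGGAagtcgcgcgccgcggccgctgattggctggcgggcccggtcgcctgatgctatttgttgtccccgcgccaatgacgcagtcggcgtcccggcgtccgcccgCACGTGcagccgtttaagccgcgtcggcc
Stra8, chr6:34920698-34920947, + strand: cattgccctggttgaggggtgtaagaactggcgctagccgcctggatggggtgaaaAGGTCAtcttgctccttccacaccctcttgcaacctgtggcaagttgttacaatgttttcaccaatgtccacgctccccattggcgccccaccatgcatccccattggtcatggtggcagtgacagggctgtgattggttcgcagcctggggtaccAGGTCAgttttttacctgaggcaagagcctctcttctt
Dazl, chr17:50293621-50293870, - strand: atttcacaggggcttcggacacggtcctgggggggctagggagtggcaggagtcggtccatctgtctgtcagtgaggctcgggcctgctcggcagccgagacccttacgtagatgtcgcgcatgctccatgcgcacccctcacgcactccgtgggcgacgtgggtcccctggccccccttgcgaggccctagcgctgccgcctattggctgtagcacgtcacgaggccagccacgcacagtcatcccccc

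Promoter windows of 300 bases, which add the 50 bases after the start, were given for 8 of the 9 genes, Nanos3 included. Sycp3, Sycp1, Ddx4 and Mael each held both an E-box and an E2F6 core, 4 of 8 windows, against 1.99% of 32851 windows in the table. Sycp3 held E-boxes beginning 64 and 43 bases before its start. With or without another motif, an E-box stood in 7.15% of all windows, an E2F6 core in 20.0% and the hexamer in 16.3%. In other germline lists, of 32 windows of meiosis genes 21.9% held both motifs and 59.4% an E2F6 core, and of 23 windows of piRNA genes 34.8% held an E-box and 0 held both. Stra8 held the hexamer at 194 and 38 bases before its start and neither other motif. Dazl, Prdm1 and Nanos3 held no match in this window. The windows of these genes held a median of 20.5 CpGs, against 18.5 in meiosis genes, 18 in piRNA genes and 7 over all windows, and they ranged from 3 in Nanos3 to 38 in Ddx4. The letters of the E-box and of the E2F6 core each contain a CpG, and the shares over all windows were not matched for CpG count. These matches are letters in a window, and neither binding nor methylation was measured.

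**Figure D1:**
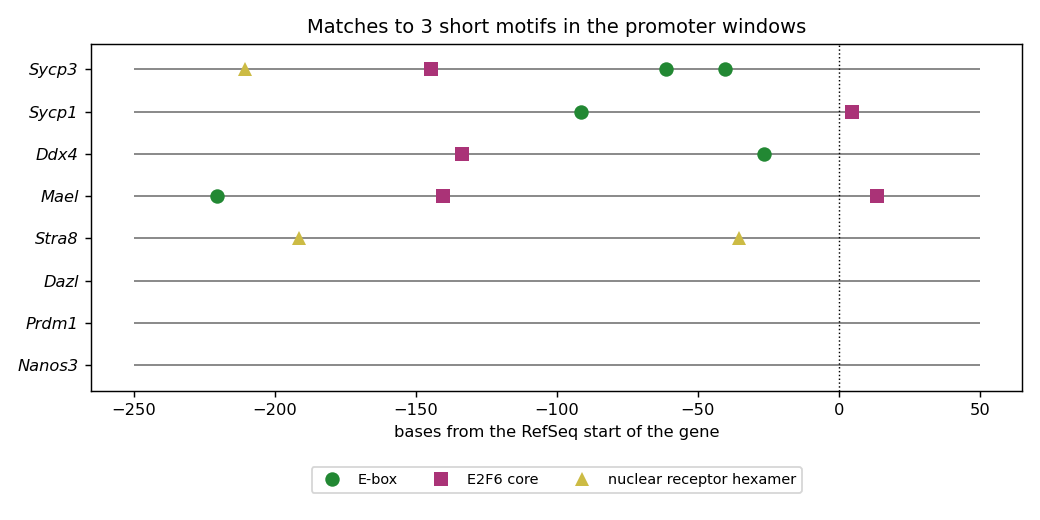
Matches to 3 short motifs in the promoter windows of 8 genes, plotted as bases from the RefSeq start (dotted line), with 250 bases before it and 50 after it. E-boxes (circles) and E2F6 cores (squares) occur together in Sycp3, Sycp1, Ddx4 and Mael, and Stra8 holds 2 nuclear receptor hexamers (triangles) alone.

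Values are log2 signals, normalized by the authors, and a biological replicate is the mean of its 3 arrays. In limma, 794 of 18193 genes (4.36%) passed an adjusted p of 0.05, of which 551 (3.03% of all genes) rose and 243 (1.34%) fell. The share that rose was 69.4% of the calls, or 58.2% after quantile normalization. With 2 values a group, the smallest two-sided p of an exact permutation test is 0.333. Low signal was gauged from 80 probe sets of olfactory and vomeronasal receptor genes, of which 95% lay under 5.62 in both groups. Probe sets differ in brightness for the same amount of RNA, so this marks dim signal and is no detection call. Pou5f1, Sox2, Nanog and Zfp42, the markers of ES cells, read 11.23 or more in every replicate. All 4 had a log2 fold change below 0 (median -0.54), and 3 had a limma p under 0.05 before adjustment. Only Zfp42 passed (log2 fold change -1.39 ± 0.14, moderated SE, adjusted p = 0.0288). Their summed linear signal was 29913 and 29184 in controls and 20481 and 18416 after proline.

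Of the 8 genes measured, Sycp3 rose, 0 fell and 7 did not pass, so that 1 of 8 was called against 4.36% of all genes, and 1 of 8 rose against 3.03%. A single gene past the threshold is too few to read against that share. Without adjustment 3 of 8, Sycp3, Dazl and Stra8, had a limma p under 0.05, against 22.1% of all genes. The same 3 genes had all 6 proline arrays on one side of all 6 control arrays, as did 24.6% of all genes. Their log2 fold changes were also at least 1 in size, as were those of 6.93% of all genes. The median log2 fold change over the 8 genes was 0.08, against -0.03 over all genes.

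**Figure D2:**
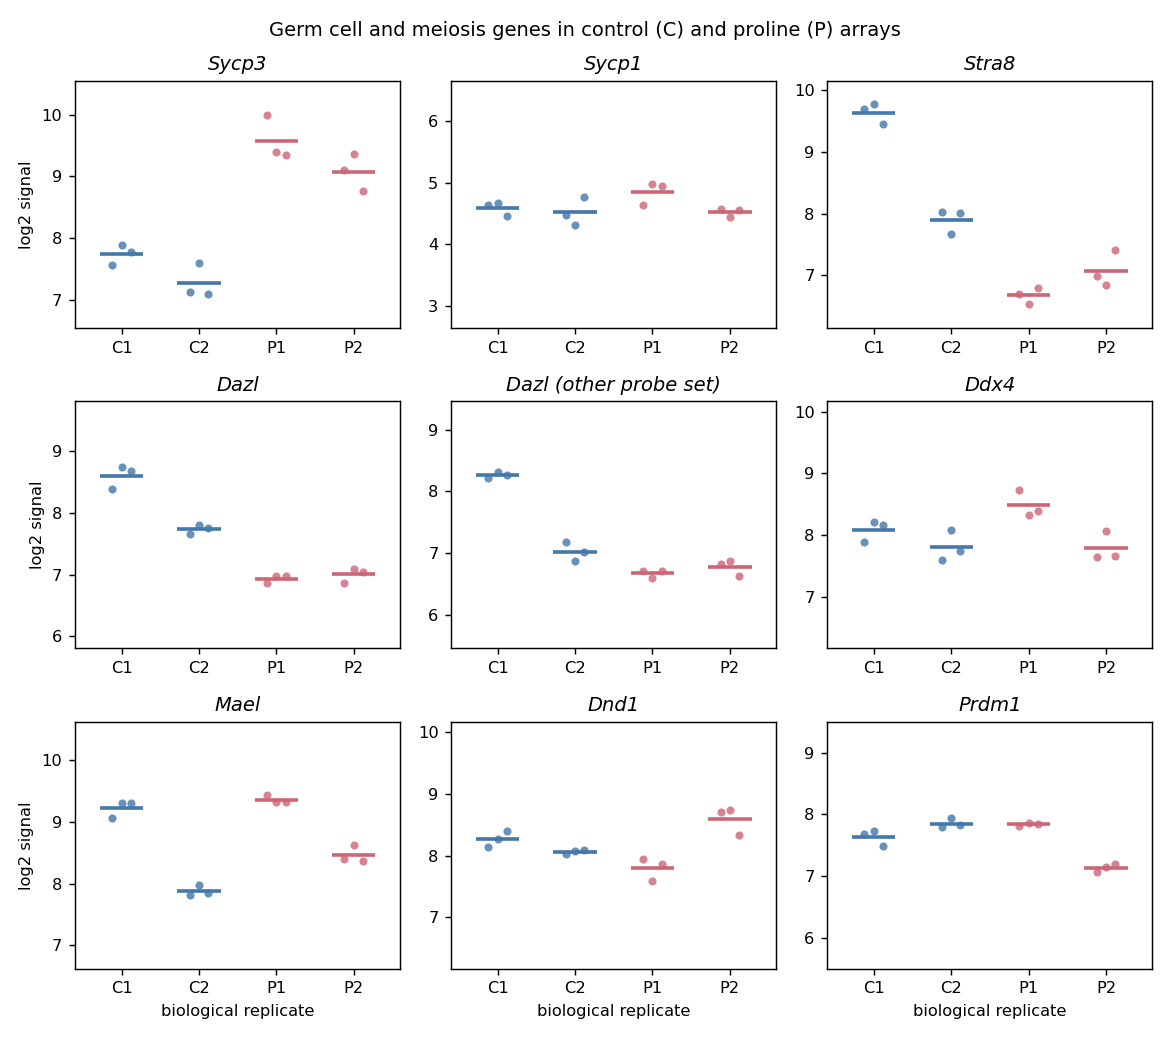
Log2 signal of the 9 probe sets on 12 arrays (points) with the mean of each biological replicate (lines), for control (C1, C2) and proline (P1, P2); every panel spans 4 log2 units. Sycp3 lies higher in both proline replicates, Stra8 and Dazl lie lower, and in Stra8, Dazl and Mael the control replicates lie apart from each other.

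Sycp3 encodes a protein of the lateral elements of the synaptonemal complex, the axis to which meiotic chromatin loops attach. Its log2 signal was 7.75 and 7.27 in control replicates 1 and 2 and 9.58 and 9.08 in proline replicates 1 and 2. All 6 proline arrays, from 8.76 to 10.00, lay above all 6 control arrays, from 7.09 to 7.89. The rise was 3.53-fold (log2 fold change 1.82 ± 0.25, limma adjusted p = 0.0405), and by size it was number 293 of 18193 genes. In all 4 pairings of a proline with a control replicate the difference was between 1.33 and 2.31, which is larger than the gaps of 0.47 between controls and 0.50 between proline replicates. The log2 fold change was 2.06 and 1.58 without control replicates 1 and 2 in turn. It was 1.57 and 2.07 without proline replicates 1 and 2 in turn. Those fits keep 1 sample in a group, so they cannot tell whether the call is stable. The call was lost when genes were taken as the median of their probe sets (limma adjusted p = 0.0542). It was also lost when probe sets were tested singly (adjusted p = 0.0713), although Sycp3 has 1 probe set and the same values in both settings.

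Sycp1, the transverse filament that zips the lateral elements together, did not pass. It read 4.59 and 4.52 in control replicates and 4.84 and 4.52 in proline replicates. The groups overlapped, and the log2 fold change was 0.13 ± 0.15 (adjusted p = 0.718; 95% interval -0.28 to 0.53). Its signal was under the 40th percentile of probe sets (5.36), and 60 of the 80 receptor probe sets were dimmer in control and 64 of 80 after proline. At this level signal cannot be separated from background. The other 8 probe sets read brighter than all 80 receptor probe sets in both groups.

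Stra8, the retinoic acid target that starts meiosis, read 9.64 and 7.90 in control replicates and 6.68 and 7.08 in proline replicates. All 6 proline arrays, between 6.53 and 7.41, lay below the 6 control arrays, between 7.67 and 9.77. The control replicates themselves stood 1.73 apart, nearly as far as the group means, and the log2 fold change of -1.89 ± 0.60 did not pass (adjusted p = 0.166; 95% interval -3.47 to -0.32). Against control replicate 1 the proline replicates differed by -2.96 and -2.56, and against control replicate 2 by -1.23 and -0.83. Without control replicate 1 the log2 fold change was -1.03, and without control replicate 2 it was -2.76.

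Dazl encodes an RNA-binding protein that promotes translation in germ cells and licenses them for sexual differentiation. Its brighter probe set read 8.60 and 7.75 in control replicates and 6.94 and 7.00 in proline replicates. The 6 proline arrays lay between 6.86 and 7.09 and the 6 control arrays between 7.66 and 8.75, so the groups did not overlap. The log2 fold change of -1.21 ± 0.30, a measured 2.31-fold lower signal, did not pass (adjusted p = 0.112; 95% interval -2.01 to -0.40). The other probe set read 8.27 and 7.02 in controls and 6.68 and 6.77 after proline, with a log2 fold change of -0.92 ± 0.44 (adjusted p = 0.387 over probe sets). In the latter the groups met, with the lowest control array and the highest proline array both at 6.87. In both probe sets control replicate 1 was highest and the proline replicates lay within 0.10 of each other. Without control replicate 1 the log2 fold change of the brighter one was -0.78.

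Ddx4 is the RNA helicase of the germ granule and a defining marker of the later germ line. It read 8.09 and 7.81 in control replicates and 8.48 and 7.79 in proline replicates. Proline replicate 2 was as low as control replicate 2, the groups overlapped, and the log2 fold change was 0.19 ± 0.27 (adjusted p = 0.773; 95% interval -0.52 to 0.90).

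Mael, a nuage protein of the piRNA pathway, read 9.22 and 7.88 in controls and 9.36 and 8.47 after proline. The gaps between replicates exceeded the difference between the groups: replicate 1 was higher than replicate 2 by 1.34 in controls and by 0.90 after proline. The log2 fold change was 0.36 ± 0.54 (adjusted p = 0.784), and its interval of -1.07 to 1.79 allows a change of more than 2-fold either way. Leaving out control replicate 2 turned it to -0.31, and leaving out proline replicate 1 to -0.09.

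The remaining genes act early in the germ line. Dnd1, a partner of the NANOS proteins, read 8.26 and 8.06 in controls and 7.80 and 8.60 after proline. The proline replicates lay on either side of the controls, and the log2 fold change was 0.03 ± 0.29 (adjusted p = 0.966; 95% interval -0.74 to 0.81). Prdm1 read 7.64 and 7.85 in controls and 7.84 and 7.13 after proline, with proline replicate 2 alone below the rest. Its log2 fold change was -0.26 ± 0.27 (adjusted p = 0.666; 95% interval -0.96 to 0.44). Prdm1 is also transcribed in visceral endoderm, and among 12 extraembryonic endoderm markers 0 passed in limma, and 3 had p under 0.05 before adjustment. The summed linear signal of those 12 was 650 and 716 in controls and 973 and 1091 after proline, and its part in the Prdm1 signal was not tested. One gene, Dab2, carried most of that difference, at 108 and 172 in controls and 376 and 508 after proline. Without Dab2, left out after its values were seen, the sum of the other 11 was 542 and 544 against 597 and 583. Of these 11, 7 had a log2 fold change above 0 and 4 below. Amn read higher after proline (6.34 and 6.07 in controls against 7.20 and 6.99), and Hnf4a read lower (6.82 and 6.59 against 6.12 and 6.02).

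**Figure D3:**
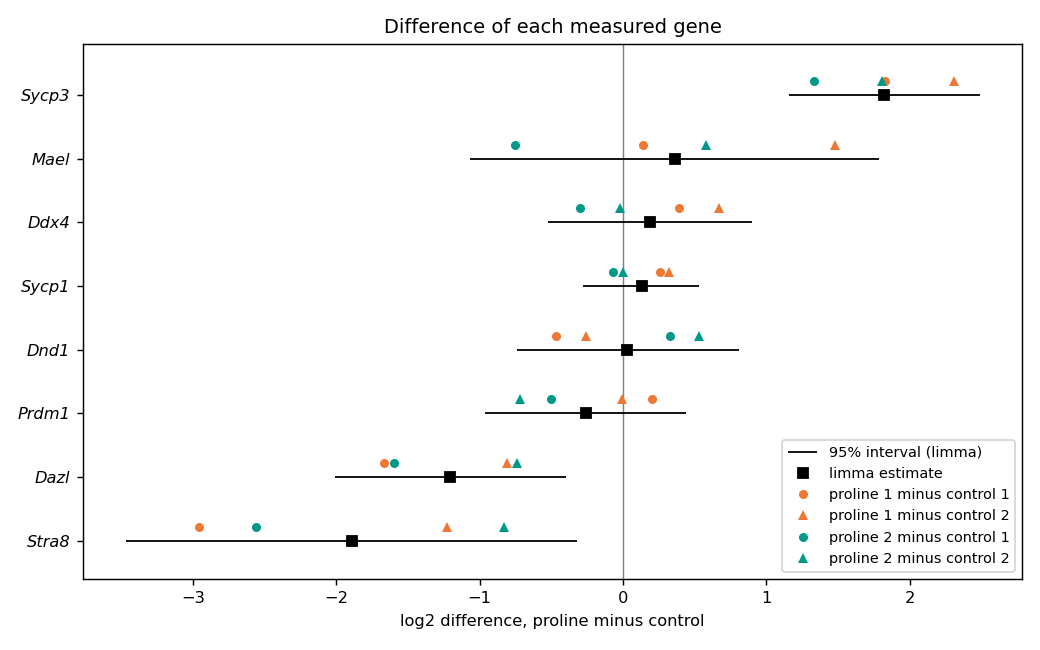
Log2 difference of proline minus control for the 8 measured genes: limma estimates (squares) with 95% intervals (lines), and above them the 4 differences between single proline and control replicates (circles and triangles). The 4 differences of Sycp3 are all above 1, those of Stra8 and Dazl are all below 0 and split by control replicate, and those of the other genes lie on both sides of 0 or reach it.

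The pattern of Sycp3 over the 12 arrays was matched most closely by Mospd1 (Pearson r = 0.990), Zcchc3 (r = 0.990) and the homeobox gene Otx2 (r = 0.989). These arrays share biological replicates, and 140 genes reached an r of 0.95. The log2 fold changes were 0.68 ± 0.15 for Mospd1, 0.65 ± 0.15 for Zcchc3 and 1.20 ± 0.22 for Otx2, so that none of the 3 was as large as that of Sycp3, and none passed (adjusted p of 0.0914, 0.0955 and 0.0618).

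Other genes of the same processes were looked at in 6 lists, of which 113 of 125 genes were measured. The lists were chosen with earlier results of these data known, so their shares of calls are descriptions only. Across them 7 genes passed (6.19%), 3 higher (2.65%) and 4 lower (3.54%), against 4.36%, 3.03% and 1.34% of all genes. The total share called lay near that of all genes, but calls were uneven. Of the 7, 5 were among the 14 measured genes of the primordial germ cell list. The median log2 fold change of the 113 was -0.12, against -0.03 over all genes. Fits that leave out 1 of the 4 biological replicates keep 1 sample in a group. They cannot tell whether calls in these lists are less stable than those of all genes.

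Meiosis genes held 29 measured members with 0 past the threshold in limma and a median of -0.03. Before adjustment 7 of the 29 had p under 0.05, against 22.1% of all genes. The mismatch repair gene Mlh3, needed for crossovers, measured -1.06 ± 0.18 (adjusted p = 0.0547), the meiotic recombinase Dmc1 0.97 ± 0.19 (adjusted p = 0.0725) and Msh4 -0.57 ± 0.14 (adjusted p = 0.106). The second probe set of Dmc1 measured 1.58, in the same direction, and Msh4 was dim, at 4.11 to 4.84.

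Genes of the piRNA pathway and the nuage also held 0 past the threshold among 15 measured in limma, and a median of -0.33. Before adjustment 6 of the 15 had p under 0.05, against 22.1% of all genes. The Tudor protein gene Tdrd5 measured 0.99 ± 0.23 (adjusted p = 0.0963), the PIWI gene Piwil4 -1.21 ± 0.37 (adjusted p = 0.158) and Asz1 -0.39 ± 0.14 (adjusted p = 0.196). Piwil4 and Asz1 were dim after proline, at 3.94 to 4.57, so their folds are not exact. Asz1 was also dim in controls (5.07 and 4.82), as was Piwil4 in control replicate 2 (4.74, with 5.79 in control replicate 1). The other probe set measured -0.39 for Piwil4 and -1.02 for Asz1.

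Among 20 other germline genes of the kind whose promoters are methylated in somatic cells, Tex14 fell and 19 did not pass. The share called, 5.00%, lay near the 4.36% of all genes. Tex14, which keeps the bridges between dividing germ cells open, read 9.79 and 9.10 in controls and 7.71 and 7.35 after proline. It was 3.77-fold lower (log2 fold change -1.92 ± 0.28, adjusted p = 0.0424), and its 6 proline arrays lay below the 6 control arrays. The list's median was -0.16, and the 6 genes with all proline arrays below all controls compare with 10.8% of all genes.

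Genes of primordial germ cells held the most calls of the 6 lists, 5 of 14 measured (35.7%, against 4.36% of all genes). As this list was chosen with earlier results known, its share is a description and no test. The zinc finger factor Prdm14 (-1.96 ± 0.20), the AKT cofactor Tcl1 (-1.27 ± 0.13) and the alkaline phosphatase Alpl (-1.15 ± 0.11) fell, and podoplanin (Pdpn, 1.92 ± 0.13) and the fucosyltransferase Fut4 (1.60 ± 0.16) rose, with adjusted p between 0.0246 and 0.0289. Prdm14, Tcl1 and Alpl are also genes of ES cells. Of the 4 ES cell markers in the same arrays, all had a log2 fold change below 0 and only Zfp42 passed. A link between these falls was not tested. The control signal of Fut4, 4.71 and 4.85, was dim, and its other probe set measured 0.30. The median of this list was -0.39.

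Repressors of germline genes held 0 past the threshold among 18 measured in limma, and 2 with p under 0.05 before adjustment, against 22.1% of all genes. E2f6 measured 0.68 ± 0.13 (adjusted p = 0.0694) by its brighter probe set and -0.12 by a dim one. The de novo DNA methyltransferase gene Dnmt3b measured 1.10 ± 0.27 (adjusted p = 0.105) and the histone methyltransferase gene Ehmt1 0.30 ± 0.13 (adjusted p = 0.292). The median was -0.11.

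Of 17 genes of retinoic acid signalling, which induces Stra8 in germ cells, Crabp2 rose and 16 did not pass. The share called, 5.88%, lay near the 4.36% of all genes. Before adjustment 6 of the 17 had a limma p under 0.05, against 22.1% of all genes. Crabp2, a retinoic acid carrier, read 6.55 and 7.04 in controls and 8.44 and 8.69 after proline. It was 3.41-fold higher (log2 fold change 1.77 ± 0.21, adjusted p = 0.0339). The list's median was 0.04.

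**Figure D4:**
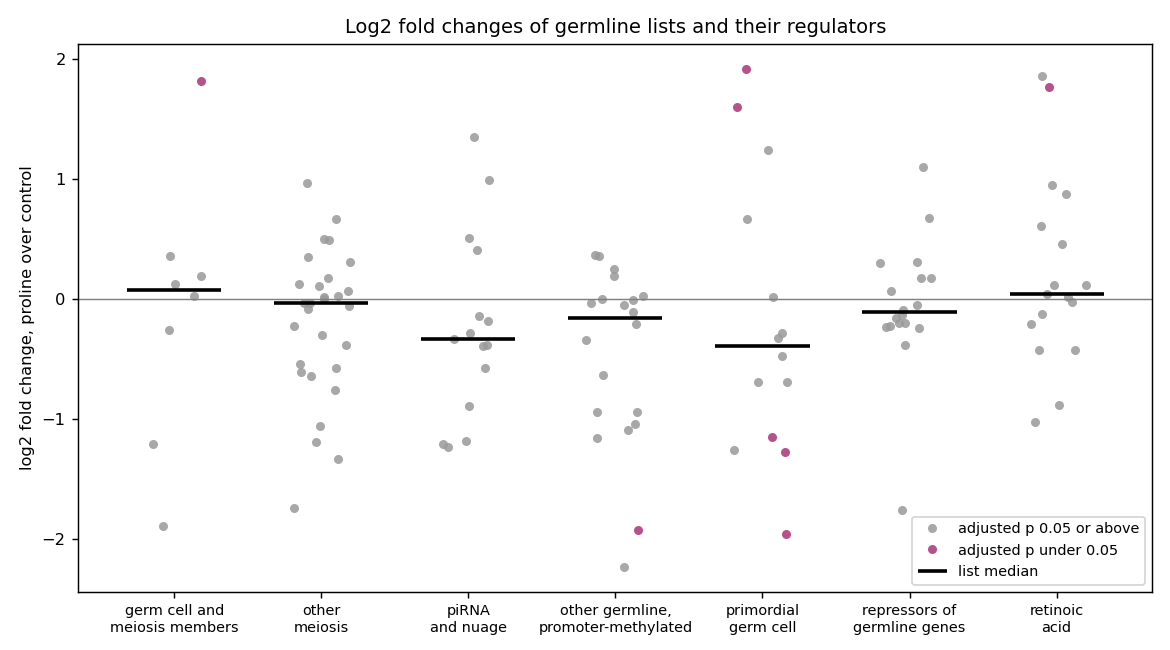
Log2 fold change of each measured gene (points) in the germ cell and meiosis genes and in 6 related lists, with list medians (bars) and genes past an adjusted p of 0.05 in colour. Sycp3 is the 1 coloured point of the first column, and the primordial germ cell list holds the most coloured points, 2 above 0 and 3 below.

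The control replicates stood well apart in a number of these genes. Controls were at least 1 log2 unit apart in Stra8 and Mael, 2 of 8 genes, against 1.80% of all genes, and proline replicates in 0 of 8, against 2.01%. In the meiosis, piRNA and promoter-methylated lists together it was 13 of 64 (20.3%), all 13 with control replicate 1 the higher, while among all genes it was 182 of 327. The widest gaps were in Hormad1 of the meiotic chromosome axis (7.08 and 5.46), the piRNA factor Gpat2 (8.92 and 7.32) and Tex11, needed for crossovers (6.93 and 5.34), named here after their values were seen. Replicate 1 was above replicate 2 in 49 of the 64 in controls (76.6%) and in 50 of 64 after proline (78.1%), against 53.0% and 55.1% of all genes. Proline replicates were that far apart in 7 of the 64 (10.9%). Of the 64 genes, 16 (25.0%) had all proline arrays below all control arrays, against 10.8% of all genes, and 5 (7.81%) had them above, against 13.8%. These shares are descriptions, since the genes of a list and the arrays of a replicate are not independent. Technical measures differed between the same samples: beta-actin 5′ minus 3′ signal, a sign of RNA integrity, was -0.90 and -0.50 in controls and -0.66 and -0.24 after proline, and 18S ribosomal RNA read 10.74, 10.04, 9.74 and 8.35 in the same order. Their part in these differences was not tested.

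**Figure D5:**
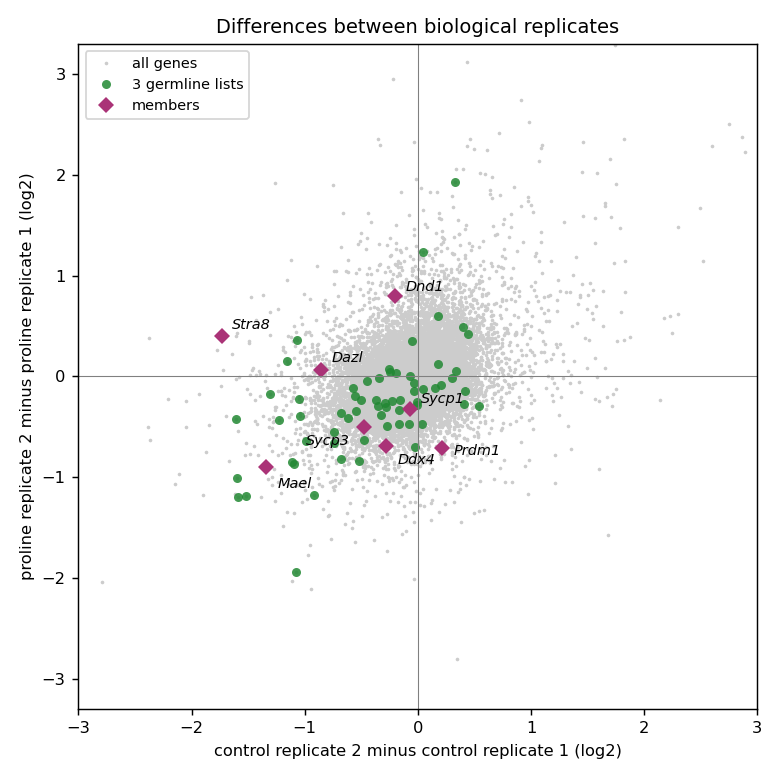
Replicate 2 minus replicate 1 in controls (horizontal axis) and after proline (vertical axis), in log2 units, for all genes (grey, 4 of them outside the axes), 64 genes of 3 germline lists (circles) and the 8 measured genes (diamonds). The germline genes lie mostly left of 0, and Stra8 and Mael lie beyond -1 on the horizontal axis.

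Markers of later or neighbouring cells were mostly dim. Under the 5.62 that marks dim signal in all 4 replicates lay 5 of 6 spermatid markers, 5 of 7 oocyte markers and 5 of 8 markers of gonadal somatic cells. In limma 0 genes of these lists passed, and 0, 1 and 1 had p under 0.05 before adjustment. The oocyte marker Zp3, the one gene of its list at that p, read 7.12 and 6.49 in controls and 5.73 and 5.77 after proline. Wt1, a transcription factor gene of gonadal soma and kidney, was the one gene of the gonadal list at that p, and read 4.98 and 6.17 in controls and 6.99 and 6.74 after proline (log2 fold change 1.29 ± 0.42, adjusted p = 0.173). Summed linear signal of the spermatid list was 228 and 240 in controls and 222 and 227 after proline, and that of the oocyte list 321 and 272 against 228 and 236. The gonadal list summed to 341 and 401 in controls and 449 and 409 after proline, and to 309 and 329 against 322 and 302 without Wt1. The 4 fibroblast markers held 0 past the threshold, in limma, also before adjustment, with sums of 744 and 466 in controls and 444 and 644 after proline.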

How the data were processed

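Values are the deposited log2 signals, normalized by the authors, of 45101 probe sets on 12 Affymetrix arrays. The submitters' processing notes name MAS5 and RMA, not which made the table. The values ran from 2.10 to 14.8, with array medians of 5.99 to 6.03. Detection calls were not used here, and for arrays the number of samples limits the precision.

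Names came from the platform's annotation (34945 with 1 symbol, 932 with several, 9160 unnamed, 64 controls), and symbols were checked by gene ID against a RefSeq table of GRCm38.p6, which changed 0 of them. Arrays of one biological replicate were averaged. Each of 18193 genes was represented by its probe set of highest mean and tested with limma 3.58.1 in R 4.3.3 (lmFit, eBayes, two-sided, no covariate, 2 residual and 2.60 prior degrees of freedom), adjusted by Benjamini-Hochberg over the 18193 genes at a threshold of 0.05. The procedure was tested on simulated data. Errors of log2 fold changes are moderated standard errors.

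All 9 genes were described. In each related list, genes past the threshold were named or, where there were 0, the 3 with the smallest p. For Sycp3 the 3 genes most correlated over the 12 arrays were named, leaving out clone-type symbols. Genes and lists were chosen with earlier results of these data known. Promoters are RefSeq windows of 300 bases (GRCm38.p6). Python 3.11.15 and matplotlib 3.10.9 made counts and plots. Alternatives were quantile normalization, a filter at the 40th percentile, the median over probe sets, single probe sets, a random block on 12 arrays, an intensity trend, the replicate number as a block, a threshold of 0.1 and leaving out each biological replicate.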

Additional observations from a re-analysis of the deposited data

How the results depend on the processing

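Of the 8 genes, the call of Sycp3 held under quantile normalization, the filter on dim genes, the intensity trend, the random block and the replicate block (log2 fold change 1.82, adjusted p = 0.00728), and at a threshold of 0.1. The count of called members was 0 with the median over probe sets, with single probe sets and without any one biological replicate (0 to 0), and 3 with the 12 arrays in a random block, where Dazl (adjusted p = 6.82e-04) and Stra8 (adjusted p = 0.00220) also passed. That setting takes its spread partly from arrays of one replicate. With the median, single probe sets and the random block, the 3 members with unadjusted limma p under 0.05 were Sycp3, Dazl and Stra8. This set was not the same in every fit without a biological replicate. Those fits keep a single sample in a group, so no conclusion is drawn from their p-values.

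Among all genes the count of 794 was 351 with the median over probe sets, 45 with single probe sets, 3987 with the random block, 2039 with the replicate block, 1800 at a threshold of 0.1 and 0 to 0 without one replicate, with 2766 to 3676 at an unadjusted p under 0.05. For the related lists the count of 7 was 0 with single probe sets (39 at an unadjusted p under 0.05 in limma), 40 with the random block, 28 with the replicate block, 17 at a threshold of 0.1 and 0 to 0 without one replicate. The labels do not say whether a control and a proline replicate of the same number were paired. Differences between replicates 2 and 1 correlated at r = 0.338 across genes between the groups, with 2 pairs only. Whether equal numbers share a batch was not tested.

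Direction turned for genes that had not passed. Leaving out one biological replicate at a time gave log2 fold changes from -0.03 to 0.29 for Sycp1, -0.16 to 0.53 for Ddx4, -0.31 to 1.03 for Mael, -0.37 to 0.43 for Dnd1 and -0.61 to 0.09 for Prdm1. Quantile normalization gave -0.04 for Dnd1. The cause was not tested. Sycp3, Dazl and Stra8 kept their direction under all 11 alternatives, between 1.57 and 2.07, -1.64 and -0.78, and -2.76 and -1.03. The filter left out Sycp1.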

Other observations

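Proline replicates were at least 1 log2 unit apart and control replicates under 0.5 apart in 5 of the 113 genes of the related lists. This rule was set after the values were seen and was not counted over all genes. Whatever the controls, proline replicates were at least 1 apart in 2.01% of all genes, so the 5 are a description only. In limma 0 of the 5 passed (1, Cyp26a1, had p under 0.05 before adjustment). Max, the partner of MGA in the repressor of germline genes, read 9.57 and 9.92 in controls, 9.39 in proline replicate 1 and 6.59 in proline replicate 2. Cyp26a1, which breaks down retinoic acid, read 5.70 and 6.05 in controls, 6.70 in proline replicate 1 and 8.76 in proline replicate 2. Rdh10, which makes retinaldehyde from retinol, read 7.45 and 7.57 in controls and 7.85 and 8.92 after proline. The Tudor protein gene Tdrd7 read 4.75 and 5.08 in controls and 5.30 and 7.22 after proline, and the homeobox gene Rhox5 11.31 and 11.36 in controls and 9.62 and 10.86 after proline.

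Other components of the synaptonemal complex were also looked at by value. Syce1 read 10.12 and 9.03 in controls and 8.27 and 7.40 after proline, Syce2 read 10.75 and 10.79 in controls and 11.68 and 11.20 after proline, and Sycp2 read 6.02 and 4.94 in controls and 6.45 and 4.51 after proline. Their log2 fold changes of -1.74, 0.67 and 0.00 had adjusted p of 0.128, 0.140 and 0.999 in limma. The central element genes Syce3 and Tex12 also did not pass: Syce3 read 6.67 and 5.93 in controls and 7.08 and 6.53 after proline (0.50, adjusted p = 0.469), and Tex12 read 5.58 and 4.90 in controls and 5.01 and 4.19 after proline (-0.64, adjusted p = 0.412).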
